A study of Saccharomyces cerevisiae with 2 samples.

Results

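The spindle assembly checkpoint of budding yeast is described here through 6 genes, MAD1, MAD2, MAD3, BUB1, BUB3 and MPS1. They were chosen by name from the 6592 named genes of a ribosome profiling table, and all 6 were found. Ribosome profiling counts the stretches of mRNA that ribosomes cover, called footprints. Both cultures were of the SK1 background, a strain that sporulates efficiently, and both had spent 4 hours in sporulation medium, which sets off meiosis. Before that they were grown at 22 degrees C in YEPD for 24 hours and then in BYTA for 16 hours. The control was labelled WT, and the other culture carried a deletion of GIM3, which encodes a subunit of prefoldin, a cochaperone for tubulin and actin. That culture is called the mutant. No other allele is named in the labels. Each genotype had 1 library, so there was no replicate error and no test between genotypes. Every interval is an exact 95% interval unless stated otherwise, and it covers counting error only.

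The checkpoint holds back anaphase while any kinetochore lacks a proper attachment to microtubules. Mps1, a protein kinase, phosphorylates the kinetochore protein Spc105, and the phosphorylated protein binds Bub3 and the Bub1 kinase. Bub1 then brings in Mad1 and its partner Mad2. Mad2, Mad3 and Bub3 together with Cdc20 form the mitotic checkpoint complex, which inhibits the anaphase-promoting complex (APC), a ubiquitin ligase, and thereby keeps the securin Pds1 from being destroyed. In yeast meiosis the same proteins delay the first division when homologous chromosomes are poorly attached. Mps1 also acts in duplication of the spindle pole body, the yeast centrosome.

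The wild-type library held 40433177 footprints and that of the mutant 27864644. Values are in RPM, reads per 1000000 of a library's own total. GIM3 had 34.9 RPM in wild type and 0.108 RPM, from 3 reads, in the mutant, 325-fold lower (111 to 1576). The 7 markers of meiotic cells summed to 13400 RPM in wild type and to 15064 in the mutant. IME2 was the highest of them in both, at 4120 and 6196 RPM. The lowest in wild type, NDT80, had 272 RPM there and 1429 RPM in the mutant, 5.26-fold higher (5.15 to 5.38). IME1, REC8 and DMC1 were lower in the mutant, with ratios of 0.728, 0.711 and 0.893, and SPO11 and ZIP1 each had a ratio of 1.04. Similar sums thus do not mean similar levels of each marker. The 8 markers of mating or haploid cells summed to 28.1 and 40.7 RPM, with none at 0. A wider list of 14 mating and haploid genes summed to 100 and 278 RPM, led in the mutant by STE18, a G protein subunit of the mating pathway, at 9.77 and 124 RPM. The 7 markers of budding mitotic cells summed to 105 and 150 RPM, with none at 0, but without BUD4, at 41.4 and 105 RPM, the other 6 summed to 64.0 and 45.5 RPM. Genes were compared where the 2 libraries averaged 10 RPM or more, which left 4916. The log2 ratio of mutant over wild type, after a pseudocount of 1 RPM, was -0.20 for the median gene. Centring on that gene raises every log2 ratio by as much, so that small negative values turn positive.

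All 6 checkpoint genes passed the level filter, and they did not move in 1 direction. MPS1 alone was at least 2-fold different, and it was higher in the mutant. MAD3 and MAD2 were higher by less than 2-fold, MAD1 and BUB1 lay close to the median gene, and BUB3 was lower by less than 2-fold. By comparison, 14.8% of the 4916 genes passed 2-fold in either direction, 6.35% upward and 8.50% downward. With 6 genes, counts of 1 and 0 cannot be set apart from those shares. A log2 ratio above 0 was found for 3 of 6 members and for 35.5% of all genes compared. The median log2 ratio over the 6 genes was 0.10, and 0.30 once centred on the median gene. Together the 6 genes took 404 RPM in wild type and 638 in the mutant, 1.58-fold more (1.54 to 1.61). Without MPS1 the other 5 took 318 and 315 RPM, a ratio of 0.991 (0.964 to 1.02).

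**Figure D1:**
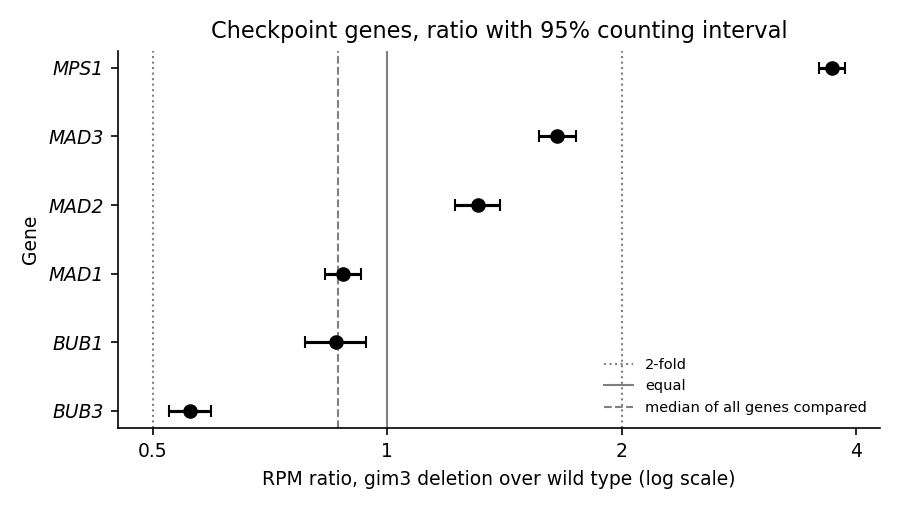
Ratio of RPM in the mutant over wild type for each checkpoint gene, on a log axis with 95% counting intervals. Dotted lines mark 2-fold, the solid line equality and the dashed line the median of the 4916 genes compared. MPS1 lies beyond 2-fold at 3.72, and BUB3 is lowest at 0.559.

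MPS1, the kinase that starts checkpoint signalling, had 87.0 RPM in wild type, from 3517 reads, and 324 RPM in the mutant, from 9020 reads. The ratio was 3.72 (3.58 to 3.87). Its log2 ratio of 1.88, or 2.09 centred, was exceeded by 146 of the 4916 genes. MPS1 supplied 21.5% of the reads of the 6 genes in wild type (20.9 to 22.1) and 50.7% in the mutant (49.97 to 51.4). With footprints alone, more mRNA and more translation of each mRNA cannot be told apart. Nor can a higher level in each cell be told from a larger share of cells that had reached a given stage. A list of middle meiotic genes, those switched on around the divisions and spore formation, had 42 genes in the table and 40 above the level filter. On the log2 scale with the pseudocount, 36 of the 40 were past 2-fold upward and 0 downward, against 6.35% and 8.50% of genes compared. AMA1 was just inside at -0.997, and the median was 3.34. Some had under 10 RPM in wild type and passed the filter through the mutant, such as SPR6 at 2.32 and 17.8 RPM. The filter left out CLB3, at 5.69 and 6.82 RPM, and SPO20, at 1.93 and 9.91. The summed level of the 42 was 7852 RPM in wild type and 50150 in the mutant, and its part in the MPS1 difference was not tested.

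The other kinase of the group, BUB1, was near the median gene. It had 31.8 RPM in wild type, from 1286 reads, and 27.3 RPM in the mutant, from 761 reads. It was 1.16-fold lower (1.06 to 1.28), which placed it at percentile 49.4 of all log2 ratios. Relative to BUB1 and per length, MPS1 went from 3.65 (3.43 to 3.90) in wild type to 15.8 (14.7 to 17.1) in the mutant. That 4.33-fold difference between the libraries had a 95% interval, by the normal approximation on log counts, of 3.93 to 4.78.

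BUB3, the WD40 propeller protein that partners both Bub1 and Mad3, had the lowest ratio of the group. It had 89.3 RPM in wild type, from 3611 reads, and 49.9 RPM in the mutant, from 1391 reads. It was 1.79-fold lower (1.68 to 1.90), a log2 ratio of -0.83, or -0.62 centred. That is not extreme among all genes, since 621 of the 4916 had a lower log2 ratio. Of the genes compared, 22.6% were at least 1.5-fold lower, as BUB3 was.

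MAD1, the coiled-coil protein that anchors Mad2 at kinetochores, had 92.3 RPM in wild type and 81.1 RPM in the mutant, from 3732 and 2259 reads. It was 1.14-fold lower (1.08 to 1.20), and its log2 ratio of -0.19 became 0.02 once centred, so its direction depends on the scaling. MAD2, the HORMA domain protein that changes shape to bind Cdc20, had 45.5 RPM in wild type and 59.5 RPM in the mutant, from 1840 and 1657 reads. MAD2 was 1.31-fold higher (1.22 to 1.40). The genes of the Mad1-Mad2 complex thus stood on opposite sides of equality in the deposited scaling, and both at or above the median gene.

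MAD3, a relative of BUB1 without the kinase domain, had 58.6 RPM in wild type and 96.9 RPM in the mutant, from 2369 and 2700 reads. It was 1.65-fold higher (1.56 to 1.75), with a log2 ratio of 0.72, or 0.92 centred. MAD3 and MPS1 were the members at least 1.5-fold higher, against 12.0% of all genes compared. In the order of ratios, MPS1, MAD3, MAD2, MAD1, BUB1 and BUB3, neighbours differed by more than counting error except MAD1 and BUB1. The ratio of MAD1 was 1.02 times that of BUB1 (0.922 to 1.13, normal approximation).

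Levels of different genes were compared as RPM per kb of coding length, taken from the R64 annotation of the reference strain S288C. The coding lengths ran from 197 codons for MAD2 to 1022 for BUB1, stop codon included. In wild type BUB3 was highest at 87.0 RPM per kb (84.2 to 89.9) and MAD2 next at 77.0 (73.5 to 80.6). MAD1 at 41.0, MPS1 at 37.9 and MAD3 at 37.8 RPM per kb lay close together below them. BUB1 was far lower at 10.4 RPM per kb (9.81 to 11.0). Neighbours in that order were separated by counting error except MPS1 and MAD3, whose levels had a ratio of 1.00 (0.950 to 1.06).

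The order was different in the mutant. MPS1 was highest at 141 RPM per kb (138 to 144), followed by MAD2 at 101 (95.8 to 106) and MAD3 at 62.6 (60.3 to 65.0). BUB3, first in wild type, came after MAD3 at 48.7 RPM per kb (46.1 to 51.3), ahead of MAD1 at 36.0 (34.6 to 37.5). BUB1 was again lowest at 8.91 RPM per kb (8.29 to 9.56). Every neighbour in this order was separated by counting error. The highest gene stood 8.39-fold over BUB1 in wild type and 15.8-fold in the mutant.

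**Figure D2:**
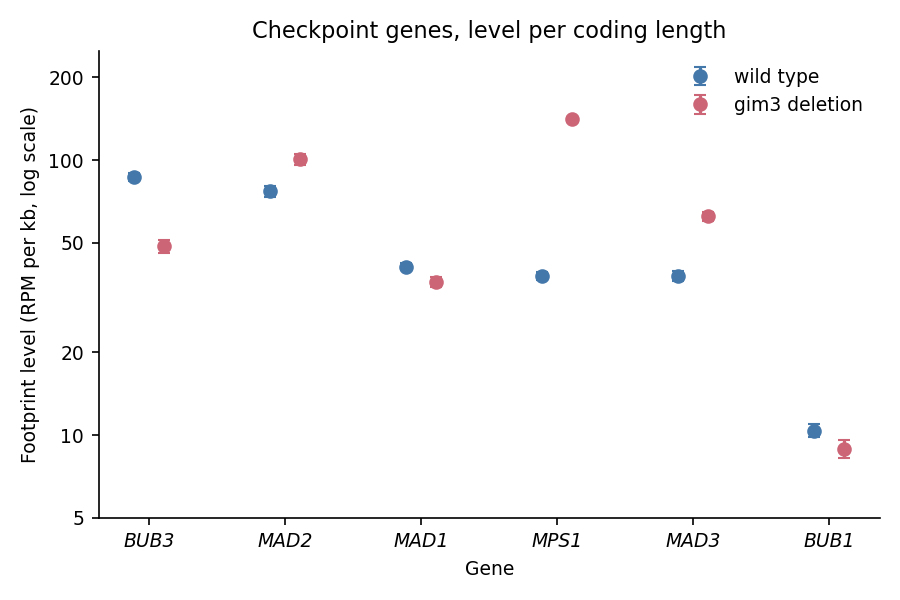
Footprint level of each checkpoint gene in RPM per kb of coding length, on a log axis, with 95% Poisson intervals for counting error and 1 library per genotype. Genes are ordered by the wild-type level. MPS1 and BUB3 change places most, from 37.9 to 141 and from 87.0 to 48.7 RPM per kb.

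Among the 4884 genes compared that had a length, most checkpoint genes were of middling level. BUB1 lay at percentile 6.61 of the levels per kb in wild type and at 6.72 in the mutant. MAD1 was as steady, at percentiles 41.0 and 41.1. MPS1 stood at percentile 38.0 in wild type and at 78.1 in the mutant, whereas BUB3 stood at 65.7 and 51.2. MAD3 stood at 37.9 and 58.3, and MAD2 at 62.2 and 70.8. Coverage of the members ran from 1.26 to 10.6 reads per codon in wild type and from 0.745 to 11.8 in the mutant, with BUB1 the thinnest in both.

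Proportions between partners differed between the libraries accordingly. MAD2 exceeded MAD1 per length by 1.88-fold (1.77 to 1.99) in wild type and by 2.79-fold (2.62 to 2.98) in the mutant. BUB3 exceeded MAD3 by 2.30-fold (2.18 to 2.42) in wild type, whereas in the mutant MAD3 exceeded BUB3 by 1.29-fold (1.21 to 1.37). BUB3 exceeded BUB1 by 8.39-fold (7.87 to 8.95) and by 5.46-fold (4.997 to 5.97). MAD1 exceeded BUB1 by 3.95-fold (3.71 to 4.22) and by 4.05-fold (3.72 to 4.40), the steadiest proportion named here.

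CDC20, the APC activator that the checkpoint proteins bind, had a larger ratio than any of them in these libraries. It had 27.1 RPM in wild type and 282 in the mutant, a ratio of 10.4 (9.78 to 11.1). Per length, CDC20 was below MAD2, MAD3 and BUB3 in wild type, at 0.192 of MAD2 (0.178 to 0.207), 0.390 of MAD3 (0.363 to 0.420) and 0.170 of BUB3 (0.158 to 0.182). In the mutant CDC20 was above all of them, at 1.53 times MAD2 (1.45 to 1.61), 2.46 times MAD3 (2.35 to 2.57) and 3.16 times BUB3 (2.99 to 3.35). Relative to MPS1, CDC20 stood at 0.390 (0.364 to 0.417) and 1.09 (1.06 to 1.13). These are proportions of footprints per length and not of protein.

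**Figure D3:**
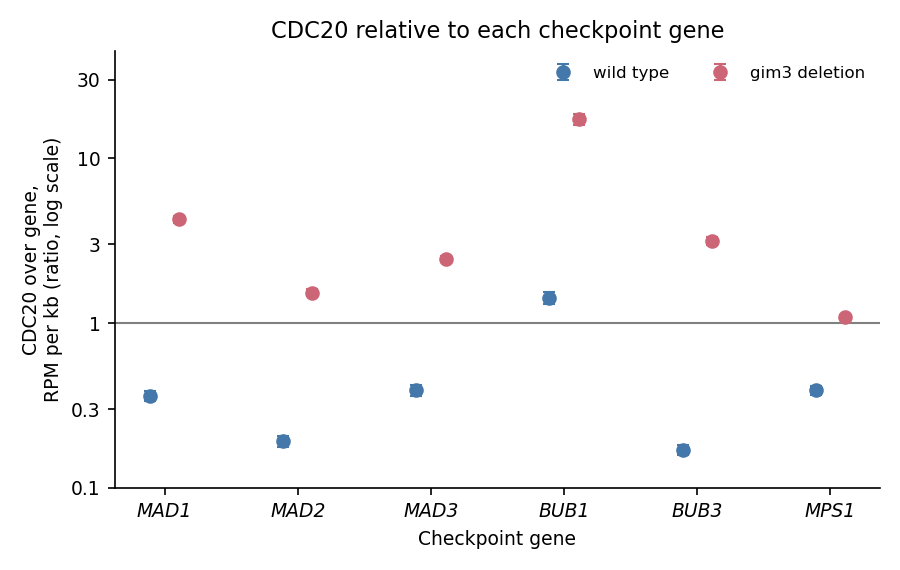
Level of CDC20 divided by the level of each checkpoint gene, both in RPM per kb, on a log axis, in each library with 95% counting intervals. In wild type CDC20 exceeds BUB1 and no other member, and in the mutant it exceeds all 6, from 1.09 times MPS1 to 17.3 times BUB1.

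Downstream of the checkpoint, most subunits of the APC core were higher in the mutant. Of 13 subunits 9 were at least 2-fold higher and 0 lower, against 6.35% and 8.50% of all genes compared. The median log2 ratio was 1.89, beside 0.10 for the checkpoint genes, of which 1 of 6 was at least 2-fold higher. CDC26 was the highest at 6.37-fold, and DOC1, which helps bind substrates, was the lowest with a log2 ratio of -0.40. Of the 3 APC activators, CDC20 had the highest ratio and AMA1, an activator used in meiosis, the lowest, at 389 and 194 RPM. PDS1, the securin that the checkpoint keeps from destruction, had 188 and 183 RPM, a ratio of 0.973 (0.939 to 1.01). The separase ESP1, which securin restrains, had 49.6 and 49.5 RPM, a ratio of 0.999 (0.932 to 1.07).

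Upstream, the kinetochore genes that carry the checkpoint lay on both sides of the median gene. Of 10 genes 1 was at least 2-fold higher and 0 lower, against 6.35% and 8.50% of all genes compared. The median log2 ratio was -0.09. The exception was NDC80, a microtubule-binding subunit to which Mps1 also binds, at 19.8 and 149 RPM, 7.52-fold higher (6.97 to 8.12), and the lowest was SPC24 with a log2 ratio of -0.61. MTW1 and SPC25 had log2 ratios of 0.44 and 0.39, close to the 0.38 of MAD2, and NNF1 had -0.54. SPC105, the scaffold that Mps1 phosphorylates, had 176 and 146 RPM and was 1.21-fold lower (1.16 to 1.26). BUB1 per length stood at 0.162 of SPC105 (0.153 to 0.172) in wild type and at 0.168 (0.156 to 0.182) in the mutant, whereas MPS1 stood at 0.592 (0.568 to 0.616) and at 2.67 (2.57 to 2.77). Relative to NDC80 the proportion of MPS1 went the other way, from 3.97 (3.67 to 4.29) in wild type to 1.96 (1.89 to 2.04) in the mutant.

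The chromosomal passenger complex, which corrects faulty attachments, and the shugoshin SGO1 had 4 of 5 genes above the filter. Against 6.35% of all genes compared, 1 of these was at least 2-fold higher. That was SGO1, which depends on Bub1 for its place at the centromere, at 3.06-fold higher (2.94 to 3.17). The Aurora kinase IPL1 was lowest, 1.13-fold lower (1.08 to 1.18) in the deposited scaling and slightly above the median gene. The 5 phosphatase and silencing genes were all within 2-fold, from RTS1 at a log2 ratio of -0.46 to GLC7, the phosphatase that opposes checkpoint signalling, at 0.34. The 5 nuclear pore genes, some of which hold Mad1 at the pore outside mitosis, were within 2-fold as well. Their median ratio was near 1, from NUP53 at -0.46 to MLP1 at 0.97 on the log2 scale. Of all genes compared, 14.8% passed 2-fold in either direction, and lists of 5 genes cannot be set apart from that share.

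MPS1 was also set beside genes of its other task. Of 6 spindle pole body genes listed for Mps1, 3 were at least 2-fold higher and 0 lower, against 6.35% and 8.50% of genes compared. Their median log2 ratio was 0.93. SPC42, a core component, was highest at 7.28-fold (7.01 to 7.56), and CNM67 was 5.34-fold and SPC29 2.67-fold higher. CDC31, the yeast centrin, was lowest with a log2 ratio of 0.13. The median log2 ratio of 12 kinases listed for cell division or meiosis was 0.48. Of these kinases, 4 were at least 2-fold higher and 0 lower, against 6.35% and 8.50% of genes compared. They were SMK1, the highest at a log2 ratio of 3.62, the polo kinase CDC5 at 8.29-fold (8.10 to 8.49), MPS1, and HRR25 at 3.53-fold (3.44 to 3.62). SMK1 and CDC5 are also on the list of middle meiotic genes. BUB1 and DBF2 were lowest and not separated by counting error, with RPM ratios of 0.859 (0.784 to 0.940) and 0.853 (0.738 to 0.985). The interval of IPL1, at 0.885 (0.846 to 0.925), overlapped both of theirs.

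**Figure D4:**
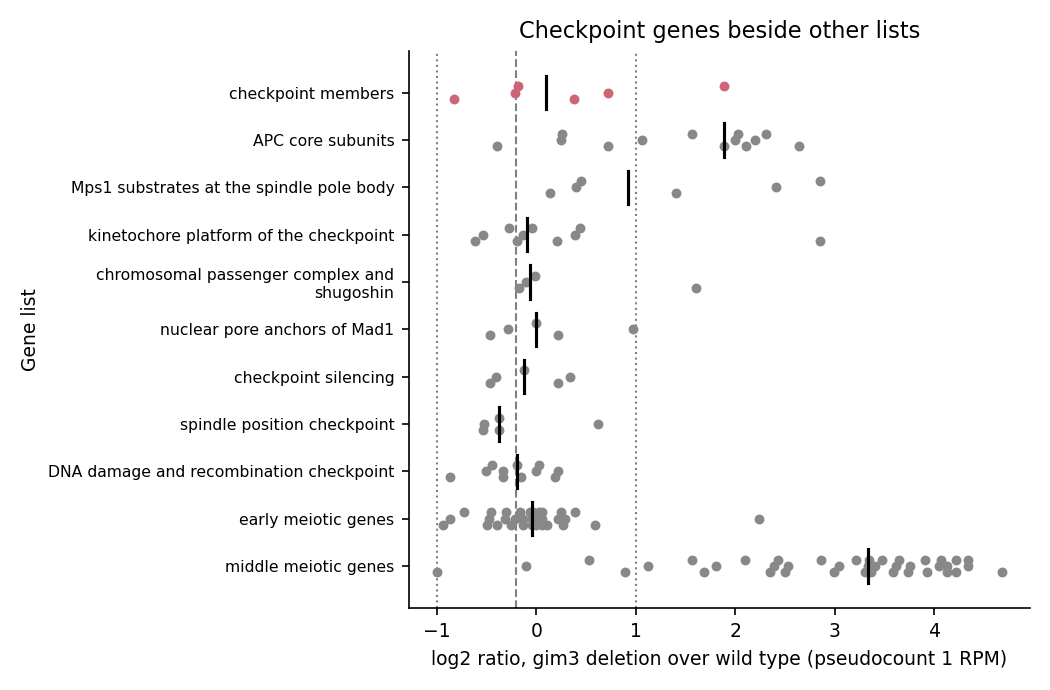
Log2 ratio of mutant over wild type (gim3 deletion over wild type on the axis), with a pseudocount of 1 RPM, for each gene above the level filter in 11 lists. Each point is a gene, the short black line is the list median, dotted lines mark 2-fold and the dashed line the median of all genes compared. The checkpoint genes spread from -0.83 to 1.88 around a median of 0.10, between the APC core at 1.89 and the spindle position checkpoint at -0.38.

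In 2 other checkpoints, no gene above the filter was at least 2-fold different, against 14.8% of all genes compared, and lists this short cannot be set apart from that share. The spindle position checkpoint, which watches where the spindle lies, had 5 of 5 genes within 2-fold and a median log2 ratio of -0.38, from LTE1 at -0.54 to KIN4 at 0.62. The DNA damage and recombination checkpoint had 11 of 12 genes above the filter, all within 2-fold, with a median of -0.19, from MEK1, the meiotic recombination kinase, at -0.87 to TEL1 at 0.22. The gene below the filter was RAD53, a checkpoint kinase, at 10.8 RPM in wild type and 2.76 in the mutant. Of 32 early meiotic genes 31 were within 2-fold and the median was -0.04. RIM4 was lowest at -0.94, and MAM1 was the exception at 4.79-fold higher. Among 5 genes listed as HORMA domain proteins and the remodeller PCH2, MAD2 was within 2-fold with 3 others. Of all genes compared, 14.8% were not within 2-fold. REV7 was highest at a log2 ratio of 2.41. It had 7.05 RPM in wild type and 41.6 in the mutant, and so passed the filter through the mutant. HOP1, an axis protein, was lowest at -0.39, though per length HOP1 stood 21.0-fold over MAD2 in wild type and 12.3-fold in the mutant.

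For each member the 2 genes with the nearest pair of levels per kb, over the 2 libraries and 4884 genes, were found by Euclidean distance on the log2 scale. For MPS1 they were LAA2, at a distance of 0.052, and HST3 at 0.14. For MAD3 they were RGD1 and TMA64, and for MAD2 DCR2 and the spindle pole body gene SPC110, which had 76.1 and 104 RPM per kb. For MAD1 they were IMH1 and PTC6, for BUB1 ITC1 and ACK1, and for BUB3 RPA14 and RNA15. The distances of these last 10 genes were between 0.010 and 0.074.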

How the data were processed

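Ribosome footprints were measured in 2 libraries, 1 per genotype. The table the authors deposited gives each gene a number for each library. Its columns each sum to 1000000, so the deposited values are RPM, not divided by length. All values (100%, within 0.001 of a read) were whole multiples of the smallest, so reads were recovered. Bowtie2, STAR and SAMtools were used per the submitters' processing notes. The sources used here do not give versions, genome build, annotation or how reads with several matches were handled. Of 6679 lines, 1 was empty and 86 had no gene name (0.121% and 0.124% of reads), and these were left out. Lengths and gene order came from the R64 RefSeq table, which matched 5910 of 6592 names. No member overlaps another annotated gene there.

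Log2 ratios used a pseudocount of 1 RPM, which understates low genes. Folds are RPM ratios with exact (Clopper-Pearson) intervals on the recovered reads. Levels carry exact Poisson intervals, and PCR duplicates cannot be told apart. With 1 library per genotype a 2-fold rule stood in for a test. A replicated count model could not be fitted. An exact two-sided binomial test on reads, with Benjamini-Hochberg adjustment at 0.05, separated 4333 of 4916 genes and all 6 members, but it compares 2 libraries and not the genotypes. The members and lists were chosen with earlier results of these data known. Named genes were the members, GIM3, the main partners and targets, the highest and lowest gene of each list, chromosomal neighbours and nearest genes by level. Other list genes given as examples were chosen after their values were seen. The steps were tested on simulated libraries. Alternatives covered pseudocount, filter, scaling, threshold, summary and gene length. The tools were matplotlib 3.10.9, SciPy 1.17.1, pandas 2.3.3 and numpy 2.4.6 under Python 3.11.15.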

Additional observations from a re-analysis of the deposited data

How the results depend on the processing

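No paired analysis was possible because each genotype had 1 library, and leaving out a library was not possible for the same reason. MPS1 was the only member at least 2-fold higher, and 0 members were at least 2-fold lower, under every pseudocount, filter and scaling run and at a 3-fold threshold. At a 1.5-fold threshold 2 members were higher (MPS1 and MAD3) and 1 was lower (BUB3). The log2 ratio of MPS1 was 1.78 with a pseudocount of 10 RPM, 2.09 centred on the median gene, 2.06 with a trimmed mean of ratios and 1.95 with totals that leave out the middle meiotic genes. The median log2 ratio of the members was 0.38 among the 5 members averaging 50 RPM or more, which leaves out BUB1, 0.30 when centred, 0.27 with the trimmed mean, and 0.29 as a mean in place of the median. These shifts come from the settings, which the counting intervals do not cover. Under the scalings run, only MAD1 changed sign among the members, from -0.19 to 0.02 when centred. Over all genes compared, 312 were at least 2-fold higher and 418 lower, and centring gave 408 and 256, a trimmed mean 395 and 270, and a pseudocount of 10 RPM 261 and 263. Lengths shortened by 60 bases, an alternative chosen after seeing the data, gave 8.74 and 15.9 for the highest member over BUB1 in wild type and the mutant, and swapped MPS1 and MAD3 in the order of wild-type levels. The binomial test, added likewise, separated 4333 genes where the 2-fold rule counted 730. BUB1, with 761 reads in the mutant, had the least precise ratio of the members. Variation between cultures was not measured.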

Other observations

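The annotated genes on either side of each checkpoint gene were read from the R64 gene order. MPS1 lies between ARP2, an actin-related gene, and MRX9, which had ratios of 0.814 (0.785 to 0.845) and 1.61 (1.498 to 1.74), both below the 3.72 of MPS1. BUB3 lies between HST3, a histone deacetylase gene, and STI1, a cochaperone gene. HST3 went from 56.1 to 186 RPM, 3.32-fold higher (3.16 to 3.49), and STI1 had a ratio of 1.04 (1.03 to 1.05), while BUB3 was 1.79-fold lower. HST3 is also among the 2 genes nearest to MPS1 by level. MAD3 lies between CCT3, a subunit of the CCT chaperonin that receives substrates from prefoldin, at a ratio of 0.845 (0.822 to 0.868), and VTC4, a polyphosphate polymerase, at 2.58 (2.54 to 2.62). MAD1 lies between MMS2 and LCL3, with ratios of 1.14 and 1.18, and MAD2 between BET4 and VPS53, with ratios of 0.896 and 0.634. BUB1 lies between HGH1 and CRH1, with ratios of 0.637 and 0.720, and was itself at 0.859.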
